A study of Mus musculus with 30 samples.

Results

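Osteoclast formation by marrow cells of 20-month-old wild-type mice was followed by RNA-seq in 6 of the 30 libraries of the series. The 6 libraries were chosen by their titles and treatment labels: 3 came from cultures harvested once large multinucleated cells were present (replicates 1, 3 and 4) and 3 from cultures harvested after 2 days (replicates 2, 3 and 4). Both groups were bone marrow-derived macrophages of C57BL/6J wild-type mice, seeded on bone slices and given M-CSF at 25 ng/ml and RANKL at 100 ng/ml in α-MEM with 10% fetal bovine serum, so that genotype, age, substrate and cytokines were shared and the harvest differed. Poly(A) RNA was selected from total RNA with oligo(dT) beads and sequenced on an Illumina NovaSeq instrument. Across the series, osteoclasts were profiled from wild-type mice at 1, 6 and 20 months. Those of mice without Terc, the telomerase RNA, were profiled at 1 and 6 months. The same pair of harvests exists at 6 months in wild type, with 3 libraries each. The labels give neither the day of the large-cell harvest nor whether the replicates of a group were separate mice, separate cultures or repeats of a culture, so the spread behind each p-value, which is pooled over the 10 groups of the series, may be technical. The labels name no sorting step. In bulk RNA a fall can come from fewer cells of a type or from less RNA per cell, and these cannot be told apart.

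Osteoclasts are bone-resorbing cells that arise when monocytes and macrophages fuse into large multinucleated cells. M-CSF acting on its receptor Csf1r keeps the precursors alive. RANKL acting on RANK (Tnfrsf11a) engages TRAF6, NF-kB and AP-1, and calcium signals from immunoreceptor-coupled adaptors help to induce the transcription factor Nfatc1. The mature cell seals off a patch of bone with an actin ring, acidifies it with a vacuolar proton pump and a chloride exchanger, and secretes cathepsin K and matrix metalloproteinases that digest collagen. Precursors divide before they fuse, and fused cells are largely outside the cell cycle.

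Large-cell and 2-day libraries formed compact groups. Over the 12614 genes tested, Pearson's r of log2 values lay between 0.985 and 0.990 within groups and between 0.911 and 0.933 across them. Genes at 1 TPM or more (a transcript's share of its library, corrected for gene length) numbered 12733 to 12937 in large-cell libraries and 12711 to 12767 in 2-day libraries, out of 45706 in the table. Transcripts of the mitochondrial genome took 8.70 to 10.2% of TPM in large-cell libraries, against 6.13 to 6.30% in 2-day libraries, and Acp5 and Ctsk together took 1.44 to 2.31% against 0.0302 to 0.0427%. Read depth is not known, since the values are TPM, and no counting interval can be given. The 6-month large-cell libraries were less alike. Mean r with the rest of their group was 0.933, 0.910 and 0.952 for replicates 1, 2 and 4, and the lowest such value in any other group was 0.960. Replicate 2 stood apart most, and differences between ages are given with and without it. Single genes and lists are not given without replicate 1 or 4 of that group.

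Between the harvests, 4611 genes passed the test, which is 36.6% of the 12614 tested: 2142 rose (17.0%) and 2469 fell (19.6%). The test was limma on log2(scaled TPM + 1) with Benjamini-Hochberg adjustment at 0.05, fitted over all 30 libraries, and changes are given as log2 large-cell minus 2-day ± standard error. At an unadjusted p under 0.05 there were 5629 genes. The median change of all genes tested was -0.03. Rises of more than 3 log2 units were called for 45 genes and falls of that size for 19. The groups did not overlap for 4533 of the called genes, and for 63.9% of all genes tested, 24.7% with large-cell libraries higher and 39.2% with them lower. Because the variance is pooled, the calls also depend on other groups: without 6-month large-cell replicate 2 there were 5835, 2663 up and 3172 down.

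The 3 largest rises, among called genes that averaged at least 5 TPM and did not overlap between harvests, were of genes that mark the mature osteoclast. Oscar, the osteoclast-associated receptor for exposed collagen (ENSMUSG00000054594, chr7:3609813-3616157 in GRCm38), was at 119, 175 and 112 TPM in large-cell cultures, against 1.204, 0.763 and 0.880 TPM in 2-day cultures (6.00 ± 0.29, adjusted p = 4.47e-13). Acp5, the tartrate-resistant acid phosphatase long used as the histochemical stain for osteoclasts (ENSMUSG00000001348, chr9:22126727-22135711 in GRCm38), was at 7623, 12058 and 7908 TPM in large-cell cultures, against 173, 186 and 137 TPM in 2-day cultures (5.85 ± 0.31, adjusted p = 1.93e-12). Ctsk, the collagen-cleaving cysteine protease cathepsin K (ENSMUSG00000028111, chr3:95499256-95509362 in GRCm38), was at 7791, 11089 and 6510.4 TPM in large-cell cultures, against 227, 242 and 166 TPM in 2-day cultures (5.38 ± 0.28, adjusted p = 1.32e-12). In each gene the large-cell libraries lay far above all 2-day libraries and large-cell replicate 3 was the highest. The promoter stretches of these genes are shown because they led the rises. They are the 250 bases before the RefSeq start (GRCm38.p6), written 5′ to 3′ on the gene's strand: Oscar chr7:3616158-3616407 (minus strand), Acp5 chr9:22135747-22135996 (minus) and Ctsk chr3:95498960-95499209 (plus). Capitals mark GGAAA, the core bound by NFAT factors among others, on either strand.
Oscar: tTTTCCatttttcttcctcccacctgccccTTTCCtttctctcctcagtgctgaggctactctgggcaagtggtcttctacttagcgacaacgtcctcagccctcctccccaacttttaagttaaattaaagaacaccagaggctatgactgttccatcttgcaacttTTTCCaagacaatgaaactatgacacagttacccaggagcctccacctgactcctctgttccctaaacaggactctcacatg
Acp5: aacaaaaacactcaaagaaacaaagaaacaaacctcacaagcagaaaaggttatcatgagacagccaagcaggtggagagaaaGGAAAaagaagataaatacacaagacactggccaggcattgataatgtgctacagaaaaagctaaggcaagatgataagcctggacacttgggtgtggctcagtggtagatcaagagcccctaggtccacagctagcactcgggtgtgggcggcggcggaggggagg
Ctsk: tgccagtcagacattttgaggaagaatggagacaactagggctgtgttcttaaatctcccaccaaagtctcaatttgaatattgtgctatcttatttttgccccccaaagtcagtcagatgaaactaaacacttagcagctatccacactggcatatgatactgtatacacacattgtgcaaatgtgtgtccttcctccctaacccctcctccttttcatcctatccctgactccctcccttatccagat
GGAAA occurred 3 times in the Oscar stretch, 1 time in that of Acp5 and 0 times in that of Ctsk. It is a short word, held by 55.6% of the 32851 promoters in the RefSeq table over the same 250 bases. The AP-1 word TGANTCA, searched on both strands, was in none of the 3 stretches and in 6.75% of all promoters. A match describes letters in a window and is no evidence of binding.

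Other genes among the 15 largest rises, taken by the same rule, included Mt3, Coq8a and Anxa8. Mt3, a metallothionein that binds zinc and copper, was at 102, 137 and 93.05 TPM in large-cell cultures, against 3.71, 4.10 and 0.683 TPM in 2-day cultures (4.97 ± 0.55, adjusted p = 1.63e-07). Coq8a, an atypical kinase needed for coenzyme Q synthesis, was at 46.5, 77.2 and 60.5 TPM in large-cell cultures, against 0.946, 1.82 and 0.624 TPM in 2-day cultures (4.79 ± 0.40, adjusted p = 2.38e-09). Anxa8, a calcium-dependent membrane-binding annexin, was at 133, 188 and 102 TPM in large-cell cultures, against 5.53, 4.90 and 3.78 TPM in 2-day cultures (4.61 ± 0.25, adjusted p = 1.93e-12). None of these groups overlapped. The mitochondrial protein gene Ndufa4l2 (4.23 ± 0.36), the ketone body enzyme gene Bdh1 (4.03 ± 0.38), Kbtbd11 (4.07 ± 0.22) and Rufy4 (3.91 ± 0.25), whose product carries a RUN domain, also belonged to the 15. The others were Slc9b2, Atp6v0d2, H2-Aa, Cd74 and H2-Eb1, described with their groups below.

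The 15 largest falls by that rule included Serpinb2, Has2 and Gpr84. Serpinb2, plasminogen activator inhibitor 2 of activated macrophages, was at 34.5, 38.4 and 45.1 TPM in large-cell cultures, against 1302, 1108 and 1137 TPM in 2-day cultures (-4.79 ± 0.32, adjusted p = 5.55e-11). Has2, which makes the matrix polysaccharide hyaluronan, was at 5.65, 5.30 and 6.94 TPM in large-cell cultures, against 125, 113 and 104 TPM in 2-day cultures (-3.93 ± 0.31, adjusted p = 8.42e-10). Both were low in every large-cell library and high in every 2-day library, with no overlap. The receptor gene Gpr84, which responds to medium-chain fatty acids, was at 20.8, 5.21 and 12.1 TPM in large-cell cultures, against 116, 117 and 119 TPM in 2-day cultures (-3.18 ± 0.26, adjusted p = 2.03e-09), again without overlap. The other names in the 15 were S100a9, Igkc, Stfa3, Cxcl3, Slpi, S100a8, Ighv1-82, Id1, Igkv3-2, Rrm2, Il1a and Ube2c. The immunoglobulin segments Ighv1-82 and Igkv3-2 were listed at 0 in all 3 large-cell libraries, against 18.6, 4.70 and 30.9 TPM and 10.97, 13.9 and 16.3 TPM in 2-day libraries.

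**Figure D1:**
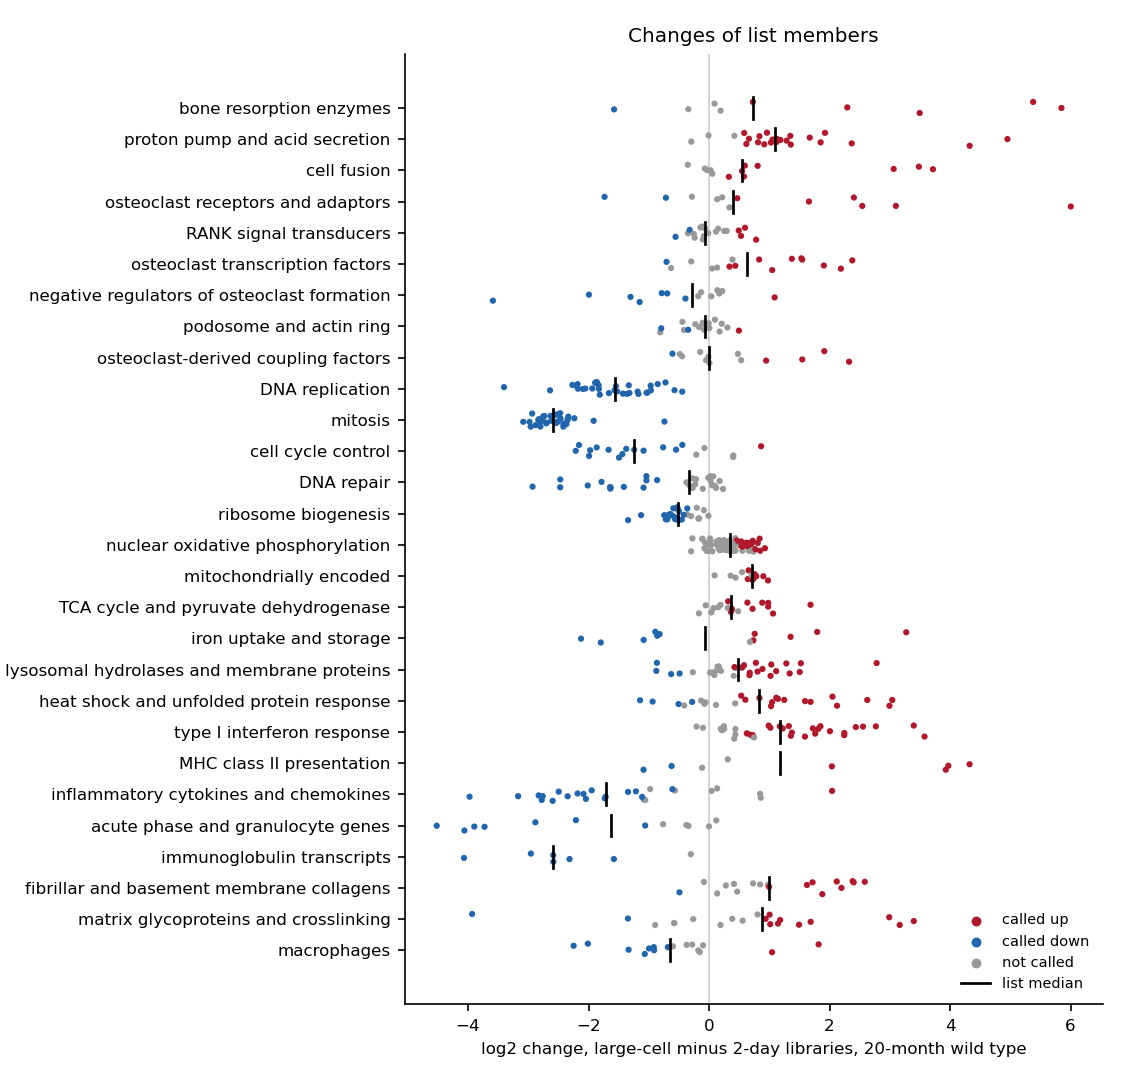
Each point is a tested member of a gene list, placed by its log2 change (large-cell minus 2-day libraries, 20-month wild type; x axis) in the row of its list. Colour gives the call, and the black bar is the list median. The proton pump, interferon and collagen rows lie mostly to the right of 0, and every point in the DNA replication and mitosis rows lies to the left.

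The receptors through which osteoclasts are formed and steered split between rises and falls. Of the 12 tested, 6 rose and 2 fell, against 17.0% and 19.6% of all genes tested, and the median change was 0.40. Tnfrsf11a, the RANKL receptor RANK, was at 43.0, 56.2 and 42.1 TPM in large-cell cultures, against 14.3, 17.3 and 13.1 TPM in 2-day cultures (1.66 ± 0.21, adjusted p = 1.18e-06). Csf1r, the M-CSF receptor, rose less, to 531, 627 and 584 TPM in large-cell cultures, against 399.6, 494 and 438 TPM in 2-day cultures (0.47 ± 0.16, adjusted p = 0.0205). Neither gene's groups overlapped. Calcr, the calcitonin receptor that marks mature osteoclasts, was at 4.98, 6.14 and 5.37 TPM in large-cell cultures, against 0, 0.180 and 0.0296 TPM in 2-day cultures (2.40 ± 0.23, adjusted p = 1.92e-08), so it was close to absent at 2 days. Itgb3, the beta chain of the vitronectin receptor on which osteoclasts attach, was at 212, 284 and 192 TPM in large-cell cultures, against 45.2, 37.8 and 37.3 TPM in 2-day cultures (2.54 ± 0.23, adjusted p = 7.77e-09). Siglec15, a sialic acid-binding lectin that signals through DAP12, also rose (3.10 ± 0.24). Its pairing adaptor Tyrobp (DAP12) was at 964, 1051 and 1031 TPM in large-cell cultures, against 926, 1002 and 1003 TPM in 2-day cultures, and did not pass (0.14 ± 0.25, adjusted p = 0.713). Fcer1g, the FcRγ adaptor with which Oscar pairs, fell: 438, 371 and 456 TPM in large-cell cultures, against 718, 721 and 751 TPM in 2-day cultures (-0.72 ± 0.24, adjusted p = 0.0193). Clec5a, another DAP12-coupled receptor, fell to 66.5, 48.0 and 57.7 TPM in large-cell cultures, against 180.3, 238 and 194 TPM in 2-day cultures (-1.73 ± 0.16, adjusted p = 9.18e-09). Oscar and its adaptor moved in opposite directions. When the 6 libraries were left out in turn, the 20-month call was lost for Csf1r (in 2 omissions, adjusted p up to 0.0981 without large-cell replicate 3) and Fcer1g (in 2 omissions, adjusted p up to 0.0751 without large-cell replicate 3).

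Tested genes for the proteins that carry the RANK signal all changed by less than 1 log2 unit. Of 19 tested transducers, 4 rose and 2 fell, against 17.0% and 19.6% of all genes tested, and the median was -0.07. Without large-cell replicate 3, or with a replicate block, 2 rose. The falls were 4 without 6-month large-cell replicate 2, 5 in the 6 libraries alone and 1 with TPM as deposited. The tyrosine kinase gene Src, needed for resorption, was at 69.6, 76.8 and 66.2 TPM in large-cell cultures, against 42.4, 43.0 and 43.5 TPM in 2-day cultures (0.78 ± 0.12, adjusted p = 1.53e-05). Traf6 (0.60 ± 0.19), the adaptor that binds RANK, Tec (0.53 ± 0.12) and the NF-kB subunit gene Relb (0.49 ± 0.18) rose by less than 1 log2 unit. Plcg2 (-0.32 ± 0.10), which raises calcium downstream of the adaptors, and the exchange factor gene Vav3 (-0.56 ± 0.17) fell. Syk, Btk, Gab2, Map3k7, Tab2, Chuk, Ikbkb, Ikbkg, Nfkb1, Nfkb2, Rela, Ppp3ca and Ppp3cb did not pass, with changes between -0.35 and 0.29. Camk4 lay below the level needed for the test. With 1 of the 6 libraries left out, the test was no longer passed by Plcg2 (adjusted p = 0.0667 without 2-day replicate 3), Relb (in 6 omissions, adjusted p up to 0.101 without 2-day replicate 3), Traf6 (adjusted p = 0.0864 without large-cell replicate 3) and Vav3 (adjusted p = 0.0537 without large-cell replicate 3).

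Transcription factors of the lineage rose in 10 of 16 cases and fell in 1, against 17.0% and 19.6% of all genes tested. Their median was 0.63. With TPM as deposited 8 rose and 3 fell. Nfatc1, the master regulator of the late program, was at 71.1, 87.1 and 66.8 TPM in large-cell cultures, against 28.9, 29.7 and 21.4 TPM in 2-day cultures (1.53 ± 0.19, adjusted p = 1.05e-06). Fos, the AP-1 protein without which no osteoclasts form in mice, was at 138, 143 and 151 TPM in large-cell cultures, against 54.3, 54.7 and 45.3 TPM in 2-day cultures (1.55 ± 0.29, adjusted p = 0.000138). The harvests did not overlap in either gene. The AP-1 partner gene Jdp2 moved further, with 271, 329.6 and 272 TPM in large-cell cultures, against 59.7, 60.7 and 53.6 TPM in 2-day cultures (2.38 ± 0.19, adjusted p = 8.86e-10). Prdm1 (2.19 ± 0.30), the Blimp1 repressor of anti-osteoclastogenic genes, Ppargc1b (1.91 ± 0.22), a coactivator of mitochondrial biogenesis, and Fosl2 (1.37 ± 0.19) rose as well. So did the lineage factors Mitf (1.05 ± 0.16) and Spi1 (0.83 ± 0.17), and, by less, Bhlhe40 (0.44 ± 0.15) and Mef2d (0.34 ± 0.12). Junb fell to 93.2, 97.2 and 93.6 TPM in large-cell cultures, against 169, 166 and 157 TPM in 2-day cultures (-0.71 ± 0.15, adjusted p = 0.000751). Tfeb, Jund, Esrra, Myc and Batf did not pass. In refits without a single library, the adjusted p rose above 0.05 for Bhlhe40 (in 4 omissions, adjusted p up to 0.106 without large-cell replicate 1) and Mef2d (in 5 omissions, adjusted p up to 0.0747 without large-cell replicate 1).

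Of 14 tested genes known to hold back osteoclast formation, 7 fell and 1 rose, against 19.6% and 17.0% of all genes tested. The list median was -0.29. Id1, an inhibitor of helix-loop-helix factors, was at 3.61, 6.01 and 4.15 TPM in large-cell cultures, against 78.6, 87.9 and 52.3 TPM in 2-day cultures (-3.59 ± 0.36, adjusted p = 4.14e-08). Tnfrsf11b, the decoy receptor osteoprotegerin that captures RANKL, was at 9.84, 7.79 and 8.36 TPM in large-cell cultures, against 45.8, 38.9 and 36.1 TPM in 2-day cultures (-1.99 ± 0.26, adjusted p = 1.64e-06). Irf8, which restrains Nfatc1, was at 41.0, 36.6 and 46.9 TPM in large-cell cultures, against 87.9, 109 and 99.8 TPM in 2-day cultures (-1.15 ± 0.10, adjusted p = 4.29e-09). All 3 were lower in every large-cell library than in any 2-day library. Id3 (-1.30 ± 0.29), Tnfaip3 (-0.78 ± 0.21) and Id2 (-0.69 ± 0.19) fell too. Pirb, an inhibitory immunoglobulin-like receptor, rose (1.09 ± 0.27), and Nrros, Lgr4, Cyld, Bcl6, Rbpj and Traf3 did not pass.

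Fusion genes rose in 8 of 13 cases and fell in 0, against 17.0% and 19.6% of all genes tested, with a median of 0.55. Dcstamp, the multipass membrane protein without which mouse osteoclasts stay mononuclear, was at 81.5, 93.7 and 62.6 TPM in large-cell cultures, against 9.41, 6.96 and 3.58 TPM in 2-day cultures (3.48 ± 0.30, adjusted p = 3.59e-09). Its relative Ocstamp was at 23.8, 33.4 and 22.4 TPM in large-cell cultures, against 2.53, 3.16 and 1.203 TPM in 2-day cultures (3.06 ± 0.24, adjusted p = 7e-10). Tspan7, a tetraspanin of the osteoclast cytoskeleton, was at 54.0, 75.5 and 49.1 TPM in large-cell cultures, against 4.25, 2.68 and 3.83 TPM in 2-day cultures (3.72 ± 0.20, adjusted p = 1.6e-12). For these genes the lowest large-cell library stood well above the highest 2-day library. The others rose by less than 1 log2 unit: Sh3pxd2a (0.81 ± 0.24), an invadopodium scaffold, Tspan5 (0.59 ± 0.15), the partners Sirpa (0.58 ± 0.15) and Cd47 (0.55 ± 0.15), and Cd81 (0.33 ± 0.12). With TPM as deposited 5 of the 13 rose. Cd9, Cd44, Adam12, Myo10 and Pik3cb did not pass. When the 6 libraries were left out in turn, the 20-month call was lost for Cd81 (in 5 omissions, adjusted p up to 0.157 without 2-day replicate 3).

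The machinery that acidifies the resorption pit rose almost as a block, with 21 of 24 genes up, 0 down and a median of 1.09. Over all genes tested, 17.0% were up and 19.6% down. Slc9b2, a sodium-proton exchanger of osteoclasts, was at 269, 359.7 and 240.2 TPM in large-cell cultures, against 9.38, 12.2 and 5.31 TPM in 2-day cultures (4.95 ± 0.26, adjusted p = 1.35e-12). Atp6v0d2, the osteoclast-enriched d2 subunit of the pump's membrane sector, was at 366, 509 and 335 TPM in large-cell cultures, against 23.3, 21.8 and 15.1 TPM in 2-day cultures (4.32 ± 0.26, adjusted p = 1.17e-11). Atp6v1b2, the nucleotide-binding B2 subunit, was at 591, 748 and 588 TPM in large-cell cultures, against 129, 136 and 124 TPM in 2-day cultures (2.37 ± 0.21, adjusted p = 6.45e-09). Large-cell replicate 3 was the highest of the 6 libraries in each. Tcirg1 encodes the a3 subunit, lost in many cases of human osteopetrosis, and was at 554, 715 and 614 TPM in large-cell cultures, against 314, 296 and 298 TPM in 2-day cultures (1.12 ± 0.25, adjusted p = 0.00104). The alternative subunits of the same positions differed: Atp6v0d1 (0.42 ± 0.17), Atp6v0a1 (-0.29 ± 0.12) and Atp6v0a2 (-0.01 ± 0.15) did not pass. Chloride and bicarbonate transport genes rose with the pump. Clcn7, the chloride-proton exchanger, was at 170.4, 205 and 160.3 TPM in large-cell cultures, against 42.8, 60.9 and 51.0 TPM in 2-day cultures (1.85 ± 0.20, adjusted p = 9.02e-08), and the anion exchanger gene Slc4a2 was at 157, 181 and 150.1 TPM in large-cell cultures, against 46.5, 40.2 and 46.3 TPM in 2-day cultures (1.92 ± 0.16, adjusted p = 2.49e-09). Snx10 (1.67 ± 0.19) and Plekhm1 (1.36 ± 0.15), which route acid vesicles, and Ostm1 (0.62 ± 0.10), the Clcn7 partner, rose too. The other 12 members that rose, all pump subunits or accessory proteins, lay between 0.58 (Atp6v1h) and 1.35 (Atp6v1d). The Clcn7 promoter (chr17:25133141-25133390, plus strand, GRCm38.p6) is shown because it holds CACGTG, the E-box word in lysosomal gene promoters, here in capitals.
Clcn7: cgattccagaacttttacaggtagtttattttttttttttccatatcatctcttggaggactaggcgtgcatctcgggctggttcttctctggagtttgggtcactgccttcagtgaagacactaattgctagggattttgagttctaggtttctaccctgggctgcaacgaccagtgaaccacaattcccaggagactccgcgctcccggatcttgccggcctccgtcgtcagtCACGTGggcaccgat
Over the 250 bases searched, CACGTG was in the promoters of 3 of 18 proton pump members found in the RefSeq table (Atp6v0b, Atp6v1a and Clcn7), of 6 of 26 lysosomal members, and of 6.02% of all promoters.

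Among the enzymes that dissolve bone matrix, 5 of 9 rose and 1 fell, with a median of 0.73. Besides Acp5 and Ctsk, Mmp9, the gelatinase of osteoclasts, was at 3147, 3809.5 and 2901 TPM in large-cell cultures, against 269.8, 252 and 415 TPM in 2-day cultures (3.50 ± 0.31, adjusted p = 5.43e-09). Car2, carbonic anhydrase 2 that supplies protons to the pump, was at 15.6, 22.9 and 17.6 TPM in large-cell cultures, against 3.03, 3.07 and 2.83 TPM in 2-day cultures (2.29 ± 0.29, adjusted p = 1.02e-06). Mmp14, a membrane-bound collagenase, rose less (0.73 ± 0.18). Adam8, a membrane protease of myeloid cells, fell: 284, 199 and 281 TPM in large-cell cultures, against 758, 832 and 792 TPM in 2-day cultures (-1.58 ± 0.14, adjusted p = 8.94e-09). The general lysosomal cathepsin genes Ctsb (0.19 ± 0.12), Ctsl (0.09 ± 0.15) and Ctsd (-0.34 ± 0.17) did not pass, although all were abundant, with Ctsd at 5220.1, 4888 and 6243 TPM in large-cell and 7128, 7661 and 7032 TPM in 2-day cultures. Of 18 genes of the podosome and actin ring, 1 rose and 2 fell, against 17.0% and 19.6% of all genes tested. These counts depend on the pooled variance. In the 6 libraries alone 4 rose and 6 fell, where 3144 and 3751 of the 12614 genes tested did. The paxillin gene Pxn rose (0.50 ± 0.10), and Ptk2b (-0.35 ± 0.08), the kinase Pyk2, and Ezr (-0.79 ± 0.22), the membrane linker ezrin, fell. Of 13 tested genes for factors by which osteoclasts act on bone-forming cells, 4 rose and 1 fell. The shares of all genes tested were 17.0% and 19.6%. Cthrc1, a secreted collagen triple helix protein, was at 72.1, 58.1 and 62.0 TPM in large-cell cultures, against 11.8, 14.9 and 10.99 TPM in 2-day cultures (2.32 ± 0.31, adjusted p = 2.15e-06). Pdgfb, a growth factor for vessels and progenitors, was at 87.2, 112 and 82.4 TPM in large-cell cultures, against 26.3, 24.2 and 25.2 TPM in 2-day cultures (1.91 ± 0.21, adjusted p = 1.35e-07). Sema4d (1.55 ± 0.23), a semaphorin that restrains osteoblasts, and Wnt10b (0.95 ± 0.17) rose, and Lif fell (-0.61 ± 0.16).

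**Figure D2:**
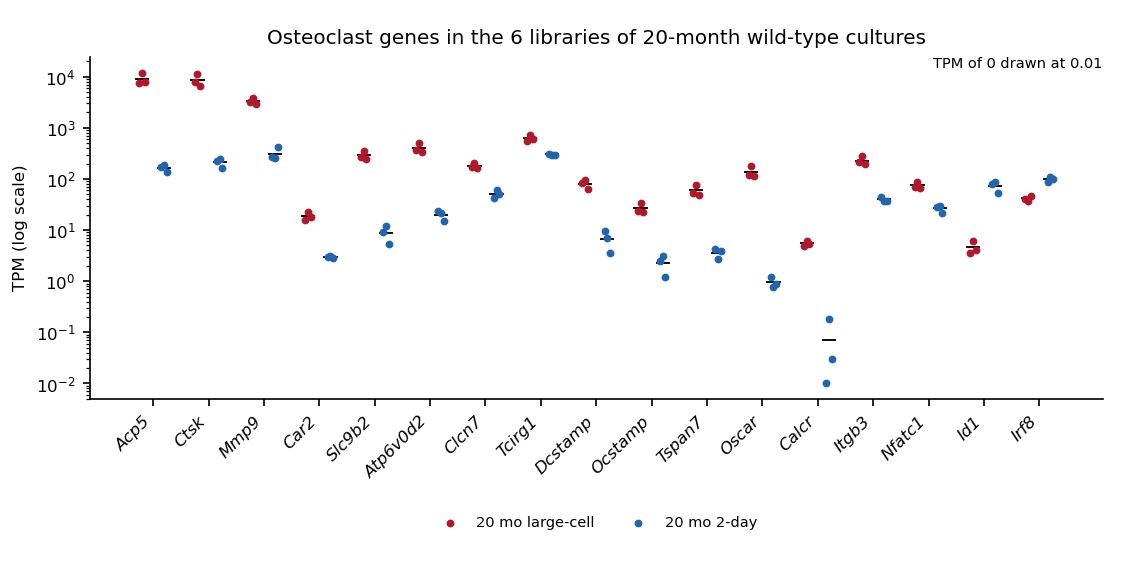
TPM of 17 osteoclast genes in the 3 large-cell libraries (red) and the 3 2-day libraries (blue) of 20-month wild-type cultures, on a log axis with a bar at each group mean. Oscar, Acp5, Calcr and Ctsk are separated by the widest gaps, and Id1 and Irf8 lie lower in large-cell libraries.

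Genes of DNA synthesis and of mitosis fell without exception among those tested. All 33 tested replication genes fell, with a median of -1.57, and all 32 tested mitosis genes fell, with a median of -2.59. Of all genes tested, 19.6% fell. Rrm2, the regulated subunit of ribonucleotide reductase that makes deoxynucleotides, was at 10.6, 8.38 and 11.3 TPM in large-cell cultures, against 127, 131 and 114 TPM in 2-day cultures (-3.40 ± 0.16, adjusted p = 3.05e-13). Mcm5, a subunit of the replicative helicase, was at 9.46, 6.26 and 8.25 TPM in large-cell cultures, against 39.0, 41.96 and 38.2 TPM in 2-day cultures (-2.09 ± 0.19, adjusted p = 8.67e-09). Tyms, which makes thymidylate, was at 13.3, 9.33 and 14.5 TPM in large-cell cultures, against 64.8, 64.7 and 61.0 TPM in 2-day cultures (-2.19 ± 0.18, adjusted p = 2.18e-09). The highest large-cell value was below the lowest 2-day value in each. The smallest falls on the list were those of Cdt1 (-0.44 ± 0.17) and Gins4 (-0.57 ± 0.12), which load and activate the helicase. In mitosis, Ube2c, the ubiquitin-conjugating enzyme of the anaphase-promoting complex, was at 14.5, 10.5 and 14.4 TPM in large-cell cultures, against 129, 129.8 and 119.9 TPM in 2-day cultures (-3.08 ± 0.26, adjusted p = 2.59e-09). Cdk1, the kinase that drives entry into mitosis, was at 37.2, 38.3 and 37.0 TPM in large-cell cultures, against 242, 231 and 224 TPM in 2-day cultures (-2.51 ± 0.17, adjusted p = 1.1e-10). Mki67, the proliferation antigen Ki-67, was at 9.18, 5.72 and 9.54 TPM in large-cell cultures, against 62.6, 69.0 and 58.2 TPM in 2-day cultures (-2.73 ± 0.22, adjusted p = 1.09e-09). Again the harvests did not overlap. The summed level of the 32 mitosis genes was 187 to 245 TPM in large-cell libraries, against 1537 to 1706 TPM in 2-day libraries. That of the 33 replication genes was 386 to 449.9 TPM, against 1317 to 1431 TPM. The promoters of Mcm5 and Ube2c (RefSeq, GRCm38.p6) are shown as examples of the 2 lists, chosen after their values were seen. Mcm5 covers chr8:75109259-75109508 (plus strand), and Ube2c covers chr2:164769679-164769897 (plus strand), shortened to 219 bases because the last bases before its start overlap an annotated exon. Capitals mark TTTNNCGC, the core of E2F sites, and CCAAT, the NF-Y box, on either strand.
Mcm5: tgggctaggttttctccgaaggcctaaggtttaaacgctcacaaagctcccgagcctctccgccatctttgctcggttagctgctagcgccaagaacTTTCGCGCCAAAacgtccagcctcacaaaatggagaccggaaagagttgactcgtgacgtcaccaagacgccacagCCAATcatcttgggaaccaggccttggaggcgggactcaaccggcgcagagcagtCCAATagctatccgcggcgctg
Ube2c: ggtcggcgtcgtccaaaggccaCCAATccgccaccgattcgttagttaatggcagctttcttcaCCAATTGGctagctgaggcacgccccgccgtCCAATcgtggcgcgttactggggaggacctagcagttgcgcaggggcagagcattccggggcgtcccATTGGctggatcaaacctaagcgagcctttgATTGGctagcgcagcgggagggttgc
The E2F word was in 8 of 27 replication promoters and 2 of 28 mitosis promoters found in the table, against 4.28% of all promoters. CCAAT was in 17 of 27 and 22 of 28, against 33.8% of all. The cell-cycle homology word TTTGAA was in 4 of 27 and 10 of 28, against 16.0% of all. Pold1, the polymerase delta subunit gene, lost its call in 3 of the 6 omissions (adjusted p up to 0.0636 without 2-day replicate 3). With 1 of the 6 libraries left out, the test was no longer passed by Cdt1 (in 6 omissions, adjusted p up to 0.104 without 2-day replicate 3).

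Regulators of the cycle followed the same direction. Of 19 tested, 14 fell and 1 rose, against 19.6% and 17.0% of all genes tested, with a median of -1.24. Ccnd1, the cyclin D1 that couples growth signals to the cycle, was at 63.4, 52.8 and 61.5 TPM in large-cell cultures, against 194, 219.7 and 191 TPM in 2-day cultures (-1.67 ± 0.15, adjusted p = 6.44e-09). Its relative Ccnd2 was at 117, 92.5 and 101 TPM in large-cell cultures, against 59.7, 56.6 and 61.0 TPM in 2-day cultures (0.86 ± 0.26, adjusted p = 0.0117). The D-type cyclins therefore moved in opposite directions, and Ccnd3 (-0.08 ± 0.12) did not pass. The transcription factor genes E2f8 (-2.21 ± 0.24), Foxm1 (-2.16 ± 0.24) and Mybl2 (-1.99 ± 0.21) and the phosphatase gene Cdc25c (-1.97 ± 0.23) had the largest falls. Cyclin-dependent kinase inhibitor genes rose in 4 of 7 cases, with 1 fall, and in 2 with a replicate block. Cdkn2a, whose locus encodes p16 and p19Arf, was at 78.8, 62.9 and 85.5 TPM in large-cell cultures, against 9.77, 10.9 and 15.04 TPM in 2-day cultures (2.64 ± 0.26, adjusted p = 2.52e-08). Cdkn2b, the neighbouring p15 gene, was at 32.2, 22.2 and 26.3 TPM in large-cell cultures, against 9.24, 7.86 and 9.77 TPM in 2-day cultures (1.53 ± 0.23, adjusted p = 1.08e-05). Both were higher in every large-cell library. Cdkn1b (0.42 ± 0.12) and the low Cdkn1c (0.54 ± 0.19) rose slightly, Cdkn2d fell (-0.74 ± 0.22), and the p53-responsive Cdkn1a was at 307, 233 and 248 TPM in large-cell cultures, against 315, 316 and 312 TPM in 2-day cultures (-0.19 ± 0.11, adjusted p = 0.206). Of 19 tested p53 targets, 2 rose and 3 fell, against 17.0% and 19.6% of all genes tested. With TPM as deposited 0 of them rose, and in the 6 libraries alone 7 fell. Replication-dependent histone genes, whose messages carry no poly(A) tail, rose in 2 of 7 tested cases and fell in 0, and 1 rose whichever of the 6 libraries was left out. Among the p53 targets, Trp53inp1 (1.00 ± 0.29) and Sesn2 (0.38 ± 0.11) rose, while Plk3 (-1.58 ± 0.14), Mdm2 (-0.71 ± 0.14) and Ccng2 (-0.46 ± 0.15) fell. In refits without a single library, the adjusted p rose above 0.05 for Ccng2 (in 3 omissions, adjusted p up to 0.07 without large-cell replicate 3) and Cdkn1c (in 5 omissions, adjusted p up to 0.114 without 2-day replicate 4).

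DNA repair genes fell in 13 of 30 tested cases and rose in 0, against 19.6% and 17.0% of all genes tested. The largest falls included genes of homologous recombination and of the Fanconi pathway. Exo1, the nuclease that resects DNA ends, was at 1.49, 0.614 and 1.56 TPM in large-cell cultures, against 16.4, 19.6 and 17.6 TPM in 2-day cultures (-2.93 ± 0.37, adjusted p = 1.05e-06). Rad51ap1 (-2.47 ± 0.18), Fanca (-2.01 ± 0.33), Rad54l (-1.78 ± 0.19), Fanci (-1.64 ± 0.17) and Fancd2 (-1.63 ± 0.26) also fell. The end-joining genes Xrcc5 (0.12 ± 0.13), Xrcc6 (-0.22 ± 0.11), Prkdc (0.05 ± 0.16) and Lig4 (-0.32 ± 0.20) did not pass, nor did the kinase genes Atm (0.07 ± 0.31) and Atr (0.23 ± 0.18). Among telomere genes, 7 of 16 fell and 0 rose, and 4 fell without 2-day replicate 2. Wrap53 (-0.85 ± 0.22), which brings telomerase to Cajal bodies, Ctc1 (-0.85 ± 0.31) of the CST complex, the helicase gene Rtel1 (-0.73 ± 0.21) and the snoRNP gene Gar1 (-0.67 ± 0.26) fell, besides Terf1, Tinf2 and Dkc1. Tert was at 1.10, 0.450 and 0.879 TPM in large-cell cultures, against 0.325, 0.815 and 0.242 TPM in 2-day cultures, and Terc at 0, 0.516 and 0 TPM in large-cell cultures, against 0, 0 and 0 TPM in 2-day cultures. Both lay below the level needed for the test, and poly(A) selection recovers telomerase RNA poorly. Ribosome biogenesis genes fell in 18 of 25 cases and rose in 0, with a median of -0.52. The box C/D snoRNP core genes had the largest falls. Nop58 was at 77.8, 67.2 and 81.8 TPM in large-cell cultures, against 209.6, 217 and 186 TPM in 2-day cultures (-1.34 ± 0.13, adjusted p = 3.04e-08), and Nop56 was at 103, 99.1 and 106 TPM in large-cell cultures, against 233, 249 and 234 TPM in 2-day cultures (-1.13 ± 0.30, adjusted p = 0.00415). When the 6 libraries were left out in turn, the 20-month call was lost for Ctc1 (in 4 omissions, adjusted p up to 0.125 without 2-day replicate 4), Gar1 (in 5 omissions, adjusted p up to 0.172 without large-cell replicate 4) and Rtel1 (in 2 omissions, adjusted p up to 0.0724 without large-cell replicate 1).

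**Figure D3:**
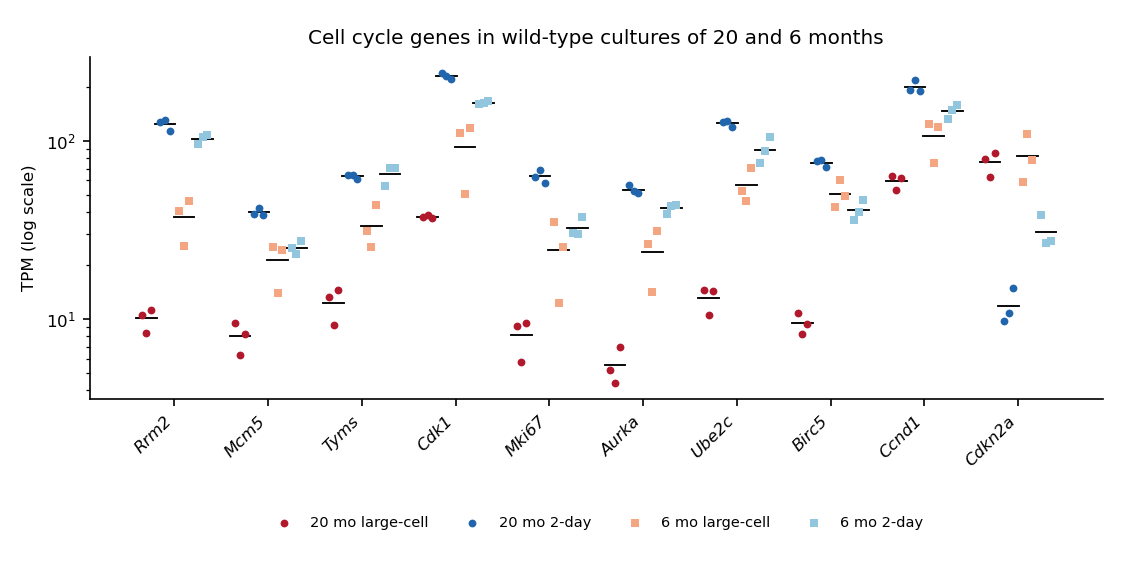
TPM of 10 cell-cycle genes in each library of the large-cell and 2-day groups at 20 and 6 months, on a log axis with a bar at each group mean. At 20 months the genes of division lie lower in large-cell libraries with no overlap and Cdkn2a lies higher, whereas the 6-month groups lie closer together.

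Some mitochondrial and energy genes rose, and few fell. The counts here stand beside 17.0% up and 19.6% down over all genes tested. Of 19 genes of the citric acid cycle and pyruvate dehydrogenase, 10 rose and 0 fell, with a median of 0.37. Mdh1, the cytosolic malate dehydrogenase of the malate shuttle, was at 404, 463 and 411 TPM in large-cell cultures, against 142, 141 and 134 TPM in 2-day cultures (1.68 ± 0.18, adjusted p = 1.1e-07). The groups did not overlap. Of 68 nuclear genes of oxidative phosphorylation, 18 rose and 0 fell, with a median of 0.35. Sdha (0.93 ± 0.13), Uqcrc2 (0.85 ± 0.10) and Sdhc (0.84 ± 0.17), of complexes II and III, led, and all 4 succinate dehydrogenase genes rose. The 18 rises of this list became 11 with a replicate block, 10 without 2-day replicate 3 or large-cell replicate 3, 30 without 6-month large-cell replicate 2 and 48 in the 6 libraries alone. Of 13 protein genes of the mitochondrial genome 8 rose, led by mt-Co3 (0.98 ± 0.20). With TPM as deposited 4 did, without 2-day replicate 3 or large-cell replicate 3 it was 3, and without 2-day replicate 2 it was 5. Nuclear copies of mitochondrial sequence make these values uncertain. Glycolysis and hypoxia genes rose in 8 of 22 cases and fell in 1, but rose in 5 with TPM as deposited and in 3 with a replicate block. It was 4 without 2-day replicate 3, large-cell replicate 1 or large-cell replicate 3, and 5 without 2-day replicate 2, and the fall was called in no omission. Pdk1, which diverts pyruvate from the mitochondrion, was at 154, 145 and 122 TPM in large-cell cultures, against 58.7, 62.7 and 61.9 TPM in 2-day cultures (1.26 ± 0.22, adjusted p = 6.96e-05). Bnip3, a hypoxia-induced mitophagy receptor, was at 417, 376 and 256 TPM in large-cell cultures, against 213, 182 and 202 TPM in 2-day cultures (0.86 ± 0.17, adjusted p = 0.000252).

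Creatine genes moved in both directions. Ckb, the brain-type creatine kinase that buffers ATP and is abundant in osteoclasts, was at 1031, 1306 and 996 TPM in large-cell cultures, against 158, 172 and 152 TPM in 2-day cultures (2.85 ± 0.32, adjusted p = 2.09e-07). Slc6a8, the creatine transporter, was at 209.9, 245 and 190.4 TPM in large-cell cultures, against 111, 102 and 108 TPM in 2-day cultures (1.07 ± 0.13, adjusted p = 3.79e-07). Gatm, the first enzyme of creatine synthesis, was at 22.8, 24.7 and 27.4 TPM in large-cell cultures, against 178, 216 and 168 TPM in 2-day cultures (-2.76 ± 0.26, adjusted p = 1e-08). Kinase and transporter were higher, and the synthetic enzyme lower, in every large-cell library. The mitochondrial kinase gene Ckmt1 was at 2.81, 2.13 and 2.39 TPM in large-cell cultures and was listed at 0 in all 2-day cultures. Coenzyme Q genes were mixed, 5 up and 3 down of 13: after Coq8a the next rise was Coq9 (1.02 ± 0.14), and Coq10b fell (-0.89 ± 0.14). Of 19 cholesterol genes 2 rose and 1 fell, against 17.0% and 19.6% of all genes tested, with a median of 0.08. In the 6 libraries alone 5 rose and 3 fell, and without 6-month large-cell replicate 2 it was 4 and 3. Among metallothionein and zinc genes 3 of 8 rose. Mt1 (0.07 ± 0.30) and Mt2 (0.16 ± 0.34) did not pass, in contrast to the 4.97 log2 units of Mt3.

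Iron genes moved in both directions, with 5 up and 6 down of 12, against 17.0% and 19.6% of all genes tested. Tfrc, the transferrin receptor, was at 252, 482 and 253 TPM in large-cell cultures, against 98.6, 99.2 and 86.2 TPM in 2-day cultures (1.79 ± 0.25, adjusted p = 5.07e-06). Steap4, a membrane metalloreductase, was at 8.20, 13.4 and 11.3 TPM in large-cell cultures, against 0.0323, 0.0744 and 0.0295 TPM in 2-day cultures (3.27 ± 0.32, adjusted p = 2.12e-08). Ncoa4, which delivers ferritin to lysosomes, rose too (1.35 ± 0.39). Among the falls, Hmox1, heme oxygenase 1, was at 819, 492 and 687 TPM in large-cell cultures, against 2999.8, 2845 and 3189 TPM in 2-day cultures (-2.12 ± 0.19, adjusted p = 4.64e-09). Slc40a1, the iron exporter ferroportin, was at 5.67, 4.16 and 5.96 TPM in large-cell cultures, against 19.9, 22.4 and 24.7 TPM in 2-day cultures (-1.80 ± 0.19, adjusted p = 1.1e-07). The ferritin genes Fth1 (-0.82 ± 0.32, adjusted p = 0.0495) and Ftl1 (-0.89 ± 0.26, adjusted p = 0.00797) were among the most abundant transcripts of both harvests and fell by less than 1 log2 unit, and reads shared with ferritin pseudogenes make their values uncertain. Lysosomal genes rose in 16 of 32 cases and fell in 4, with a median of 0.48. Arsb, arylsulfatase B that degrades dermatan and chondroitin sulfate, was at 115, 137 and 104 TPM in large-cell cultures, against 15.4, 19.3 and 16.6 TPM in 2-day cultures (2.78 ± 0.31, adjusted p = 1.57e-07). Hexa, a subunit of beta-hexosaminidase, was at 686, 855 and 668 TPM in large-cell cultures, against 260.2, 280.4 and 264 TPM in 2-day cultures (1.52 ± 0.17, adjusted p = 2.19e-07). Naglu (1.51 ± 0.18) and Glb1 (1.28 ± 0.10), other glycan-cleaving hydrolases, followed. The peptidase genes Ctsc (-0.87 ± 0.16) and Ctsh (-0.87 ± 0.17) fell. With 1 of the 6 libraries left out, the test was no longer passed by Fth1 (in 6 omissions, adjusted p up to 0.195 without large-cell replicate 3).

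Genes of the heat shock and unfolded protein response rose in 15 of 25 cases and fell in 4, with a median of 0.84. Over all genes tested, 17.0% rose and 19.6% fell. Most of the rises were of the endoplasmic reticulum and its stress response, which serves cells that secrete much protein. Ddit3, the stress-induced factor CHOP, was at 301, 221 and 322 TPM in large-cell cultures, against 32.6, 35.2 and 36.002 TPM in 2-day cultures (3.04 ± 0.32, adjusted p = 7.5e-08). Trib3, a pseudokinase induced by ATF4 and CHOP, was at 36.5, 36.03 and 42.4 TPM in large-cell cultures, against 4.64, 3.32 and 3.995 TPM in 2-day cultures (2.99 ± 0.31, adjusted p = 4.64e-08). Hspa5, the lumenal chaperone BiP, was at 2397, 2044 and 2362 TPM in large-cell cultures, against 743, 827 and 667 TPM in 2-day cultures (1.68 ± 0.11, adjusted p = 3.7e-11). The harvests did not overlap in these genes. Pdia4 (2.05 ± 0.16), Herpud1 (2.12 ± 0.14), Calr (1.25 ± 0.14), Pdia6 (1.14 ± 0.11) and Dnajb9 (1.03 ± 0.19), of folding and degradation in the same compartment, rose as well. Hsp90b1, the lumenal GRP94, was at 2511, 2237 and 2367 TPM in large-cell cultures, against 831, 865 and 793 TPM in 2-day cultures (1.59 ± 0.10, adjusted p = 5.22e-11). Its cytosolic relatives fell: Hsp90aa1 was at 388, 350.1 and 341 TPM in large-cell cultures, against 745, 684 and 756 TPM in 2-day cultures (-0.94 ± 0.13, adjusted p = 3.4e-06), and Hsp90ab1 changed by -0.28 ± 0.09. Hsph1 (-1.14 ± 0.17) and the mitochondrial Hspd1 (-0.51 ± 0.09) fell too. The Hsp90b1 promoter (RefSeq, GRCm38.p6, chr10:86705510-86705694, minus strand, 185 bases, cut short of an exon nearer its start) is shown because it holds 2 copies of the endoplasmic reticulum stress element (CCAAT, a gap, then CCACG), in capitals.
Hsp90b1: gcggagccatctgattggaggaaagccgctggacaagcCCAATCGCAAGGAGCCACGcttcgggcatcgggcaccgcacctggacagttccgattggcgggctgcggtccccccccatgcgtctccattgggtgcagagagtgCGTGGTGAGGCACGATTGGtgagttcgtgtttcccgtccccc
This word was in 5 of 22 promoters of the list (Canx, Pdia6, Calr, Hsp90b1 and Hspa5) and in 0.113% of all promoters. These 5 genes were among the 15 of 25 that rose, and a role of the word was not tested. In refits without a single library, the adjusted p rose above 0.05 for Canx (in 6 omissions, adjusted p up to 0.104 without large-cell replicate 4) and Hsp90ab1 (in 3 omissions, adjusted p up to 0.0732 without large-cell replicate 4).

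Interferon-stimulated genes rose in 23 of 35 cases and fell in 0, against 17.0% and 19.6% of all genes tested, with a median of 1.17. Isg15, a ubiquitin-like antiviral modifier, was at 88.8, 79.8 and 93.1 TPM in large-cell cultures, against 6.98, 4.38 and 8.99 TPM in 2-day cultures (3.58 ± 0.32, adjusted p = 6.44e-09). Ifit3, which binds viral RNA complexes, was at 15.3, 20.4 and 16.6 TPM in large-cell cultures, against 2.40, 2.34 and 2.29 TPM in 2-day cultures (2.44 ± 0.34, adjusted p = 4.24e-06). Rtp4, a chaperone of membrane receptors, was at 28.5, 30.2 and 35.5 TPM in large-cell cultures, against 4.48, 4.25 and 2.77 TPM in 2-day cultures (2.77 ± 0.35, adjusted p = 9.64e-07). All large-cell libraries exceeded all 2-day libraries in the 3 genes. Usp18 (2.24 ± 0.25), the brake on the interferon receptor, and the factors Irf7 (1.81 ± 0.32), Stat2 (0.99 ± 0.17) and Irf9 (0.63 ± 0.15) rose. Cxcl10 (-0.21 ± 0.25), Bst2 (-0.10 ± 0.27), Ifih1 (0.19 ± 0.18) and Rsad2 (0.44 ± 0.27) did not pass. The summed level was 984 to 1136 TPM in large-cell libraries, against 629.7 to 709 TPM in 2-day libraries, and its most abundant member was Bst2, at 393, 322 and 382 TPM in large-cell cultures, against 398, 449 and 393 TPM in 2-day cultures. The promoters of Isg15 (chr4:156200819-156201068, minus strand) and Ifit3 (chr19:34583279-34583528, plus strand), RefSeq, GRCm38.p6, show the interferon response word (GAAA, any 2 bases, GAAA) in capitals, on either strand and including overlapping copies.
Isg15: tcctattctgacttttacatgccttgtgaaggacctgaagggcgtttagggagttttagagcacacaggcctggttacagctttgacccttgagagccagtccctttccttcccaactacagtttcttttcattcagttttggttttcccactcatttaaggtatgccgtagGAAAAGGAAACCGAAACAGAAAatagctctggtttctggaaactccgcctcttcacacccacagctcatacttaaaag
Ifit3: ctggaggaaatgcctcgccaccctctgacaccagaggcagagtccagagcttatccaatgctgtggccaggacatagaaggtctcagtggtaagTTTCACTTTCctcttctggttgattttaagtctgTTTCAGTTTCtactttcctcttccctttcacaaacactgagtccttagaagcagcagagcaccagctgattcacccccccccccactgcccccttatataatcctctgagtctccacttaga
The word was in 12 of 25 promoters of the interferon list, 2 of 13 of the MHC class I list, and 2.98% of all promoters.

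Antigen presentation genes divided, where 17.0% of all genes tested rose and 19.6% fell. The classical class II chains and the invariant chain rose. H2-Aa, the alpha chain of I-A, was at 85.2, 25.7 and 32.0 TPM in large-cell cultures, against 0.881, 1.91 and 0.404 TPM in 2-day cultures (4.32 ± 0.44, adjusted p = 4.14e-08). Cd74, the invariant chain that escorts class II molecules, was at 202, 67.4 and 86.1 TPM in large-cell cultures, against 6.68, 6.19 and 5.01 TPM in 2-day cultures (3.97 ± 0.39, adjusted p = 2.43e-08). H2-Eb1, the beta chain of I-E, was at 63.6, 15.3 and 22.1 TPM in large-cell cultures, against 1.14, 0.720 and 0.475 TPM in 2-day cultures (3.93 ± 0.42, adjusted p = 1.08e-07). Large-cell replicate 1 was the highest and the 2-day libraries were uniformly low. H2-Ab1 rose less (2.04 ± 0.41). The peptide-exchange genes H2-DMa (-0.62 ± 0.18) and H2-DMb2 (-1.09 ± 0.32) fell, so the list of 8 tested genes had 4 rises and 2 falls. Ciita, the class II transactivator, was below the level needed for the test, at 0.597, 0.373 and 0.503 TPM in large-cell cultures, against 0.0186, 0.0429 and 0 TPM in 2-day cultures. Dendritic cell markers were low throughout: the 9 genes summed to 9.82 to 16.6 TPM in large-cell libraries, against 6.09 to 7.76 TPM in 2-day libraries, with Cd209a and Siglech listed at 0 in all 6. Of the 2 tested, Ccr7 rose (2.27 ± 0.38) and Itgax did not pass (0.36 ± 0.19). The part of these cells in the class II values was not tested. Class I genes rose in 8 of 15 cases and fell in 0, with H2-T23 first (1.55 ± 0.14), the peptide transporter genes Tap1 (0.91 ± 0.19) and Tap2 (0.74 ± 0.20) between, and B2m (0.08 ± 0.16) not passing. With a replicate block 4 rose, and 5 did without 2-day replicate 2 or any of the large-cell libraries. Reads shared among near-identical H2 genes make the single values uncertain. When the 6 libraries were left out in turn, the 20-month call was lost for H2-DMa (adjusted p = 0.0544 without large-cell replicate 3) and H2-DMb2 (adjusted p = 0.0716 without large-cell replicate 3).

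Inflammatory cytokine and chemokine genes fell, 19 of 27, with 1 rise and a median of -1.72. Cxcl3, a neutrophil chemoattractant, was at 29.6, 3.76 and 10.0 TPM in large-cell cultures, against 166, 163 and 282 TPM in 2-day cultures (-3.97 ± 0.52, adjusted p = 1.88e-06). Il1a, interleukin 1 alpha, was at 11.8, 0.884 and 2.41 TPM in large-cell cultures, against 41.5, 36.2 and 50.7 TPM in 2-day cultures (-3.17 ± 0.53, adjusted p = 4.63e-05). Ptgs2, the inducible cyclooxygenase, was at 96.8, 90.5 and 95.4 TPM in large-cell cultures, against 613, 546 and 544 TPM in 2-day cultures (-2.49 ± 0.35, adjusted p = 3.74e-06). For each, the lowest large-cell value was in replicate 3. Csf1, the gene of M-CSF itself, fell as well, with 259, 192 and 229 TPM in large-cell cultures, against 546, 478 and 489 TPM in 2-day cultures (-1.08 ± 0.32, adjusted p = 0.01). The chemokine genes Cxcl1 (-2.78 ± 0.42), Cxcl2 (-2.76 ± 0.40), Ccl3 (-2.60 ± 0.45), Ccl12 (-2.35 ± 0.33) and Ccl4 (-2.04 ± 0.54) fell by more than 2 log2 units. Csf2 was listed at 0 in large-cell cultures and was at 2.73, 5.06 and 3.35 TPM in 2-day cultures. Ccl5, an interferon-responsive chemokine, was the rise: 42.8, 15.2 and 35.4 TPM in large-cell cultures, against 6.07, 9.20 and 4.54 TPM in 2-day cultures (2.04 ± 0.39, adjusted p = 0.00018). Of 12 tested acute phase and granulocyte genes 7 fell and 0 rose, against 19.6% and 17.0% of all genes tested. Slpi, a leukocyte protease inhibitor, was at 26.8, 4.24 and 16.6 TPM in large-cell cultures, against 196, 181 and 289 TPM in 2-day cultures (-3.90 ± 0.56, adjusted p = 6.79e-06). S100a8, a subunit of calprotectin, was at 17.7, 2.99 and 13.7 TPM in large-cell cultures, against 127, 142 and 172 TPM in 2-day cultures (-3.73 ± 0.59, adjusted p = 1.97e-05). S100a9, its partner, was listed at 0 in large-cell cultures and was at 18.3, 60.2 and 19.2 TPM in 2-day cultures. These 2-day values alone were enough for S100a9 to reach the test, so its place in the count was partly set by the filter. Stfa3 (-4.06 ± 0.71), Lcn2 (-2.88 ± 0.56), Saa3 (-2.21 ± 0.68) and Mmp8 (-1.06 ± 0.36) fell too. The neutrophil markers summed to 6.54 to 7.08 TPM in large-cell libraries, against 5.61 to 6.97 TPM in 2-day libraries, with Mpo and Elane listed at 0 in all 6, and Csf3r, the member tested, did not pass (0.50 ± 0.27). With 1 of the 6 libraries left out, the test was no longer passed by Mmp8 (in 3 omissions, adjusted p up to 0.197 without 2-day replicate 4) and Saa3 (in 2 omissions, adjusted p up to 0.0915 without large-cell replicate 3).

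Immunoglobulin transcripts fell in 6 of 7 tested cases and rose in 0, against 19.6% and 17.0% of all genes tested. Segments entered the test by their mean over the 30 libraries. For Igkc, Ighg2b, Ighv1-82 and Igkv3-2 the 20-month 2-day values alone were enough to reach it. The count of falls was therefore partly set by the filter and is descriptive. Igkc, the kappa constant segment, was at 5.55, 1.85 and 3.53 TPM in large-cell cultures, against 70.9, 74.1 and 97.5 TPM in 2-day cultures (-4.07 ± 0.30, adjusted p = 2.81e-10). Ighg2b, a heavy chain constant segment, was at 2.16, 0 and 2.31 TPM in large-cell cultures, against 16.4, 21.9 and 17.4 TPM in 2-day cultures (-2.96 ± 0.25, adjusted p = 2.18e-09). The 13 segments summed to 2.93 to 14.7 TPM in large-cell libraries, against 131 to 167 TPM in 2-day libraries. The B and plasma cell markers did not follow: their sum was 198 to 262 TPM in large-cell libraries, against 94.5 to 111 TPM in 2-day libraries, nearly all of it Sdc1, which other cells also express. Sdc1 was at 221, 260.3 and 197 TPM in large-cell cultures, against 109, 93.7 and 106 TPM in 2-day cultures (1.199 ± 0.16, adjusted p = 2.85e-06). Vpreb3 was listed at 0 in all 6. The part of B lineage cells in the immunoglobulin values was not tested, and shared sequence makes single segments uncertain.

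**Figure D4:**
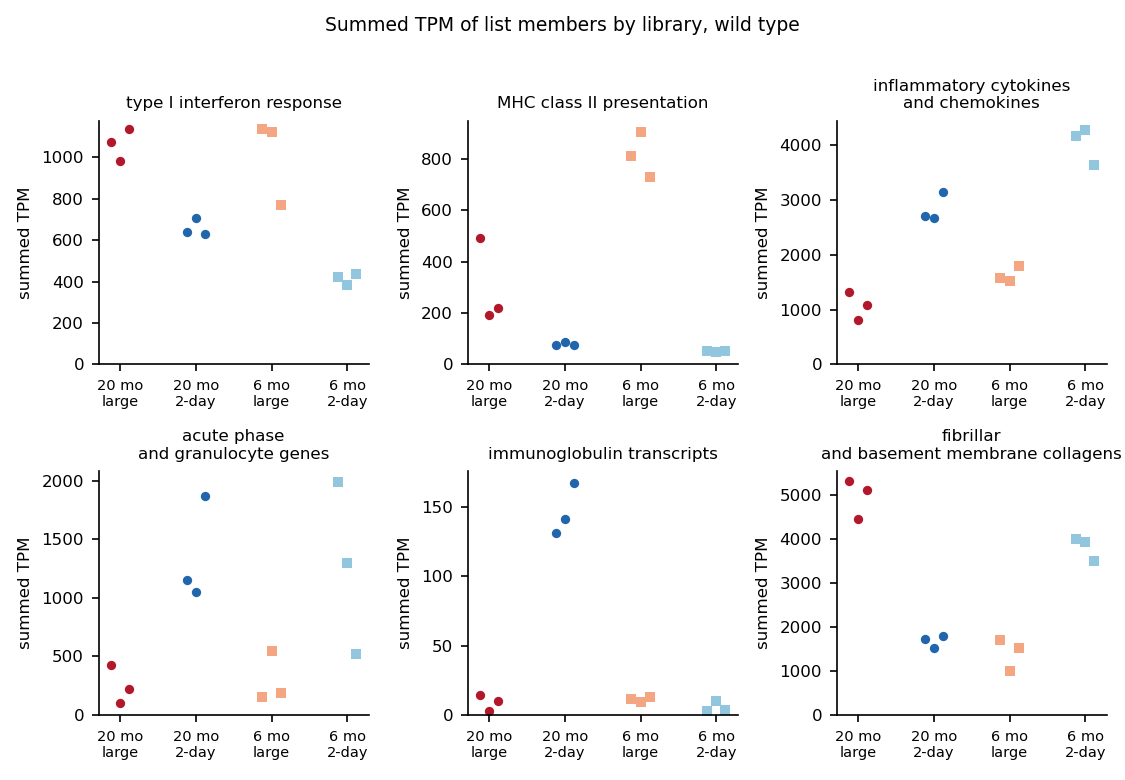
Summed TPM of 6 gene lists in each library of the large-cell and 2-day groups at 20 and 6 months. Immunoglobulin sums are high in the 20-month 2-day libraries alone, and collagen sums are higher in large-cell libraries at 20 months but lower in them at 6 months.

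Collagen genes rose in 9 of 18 cases and fell in 1, with a median of 0.99. Col1a1, the main collagen of bone, was at 1634, 1325 and 1511 TPM in large-cell cultures, against 259, 230.0 and 297 TPM in 2-day cultures (2.58 ± 0.36, adjusted p = 3.66e-06). Col3a1, the fibrillar collagen of loose tissue, was at 255, 241 and 283 TPM in large-cell cultures, against 53.2, 41.7 and 61.4 TPM in 2-day cultures (2.38 ± 0.44, adjusted p = 0.00014). Col6a1, a microfibrillar collagen chain, was at 30.5, 29.8 and 38.4 TPM in large-cell cultures, against 5.61, 5.28 and 5.67 TPM in 2-day cultures (2.40 ± 0.35, adjusted p = 7.38e-06). Large-cell libraries were higher throughout. Col18a1 fell (-0.49 ± 0.13). The 18 genes summed to 4438 to 5310.0 TPM in large-cell libraries, against 1511 to 1793 TPM in 2-day libraries. Matrix glycoprotein and crosslinking genes rose in 10 of 20 cases and fell in 2, but rose in 7 with TPM as deposited, 6 without 2-day replicate 3 and 4 with a replicate block. Thbs2, an antiangiogenic thrombospondin, was at 314, 246 and 303 TPM in large-cell cultures, against 34.0, 25.9 and 39.1 TPM in 2-day cultures (3.16 ± 0.49, adjusted p = 1.64e-05). Postn, the periosteal matricellular protein, was at 741, 483 and 604 TPM in large-cell cultures, against 71.6, 70.0 and 97.5 TPM in 2-day cultures (2.99 ± 0.44, adjusted p = 7.44e-06). Ogn, a small leucine-rich proteoglycan of bone, was at 25.5, 13.1 and 34.6 TPM in large-cell cultures, against 0.535, 1.18 and 1.84 TPM in 2-day cultures (3.40 ± 0.45, adjusted p = 1.75e-06). Loxl4 fell (-1.35 ± 0.35), as did Has2. Contractile genes of myofibroblasts were abundant, with Acta2 at 2019, 1616 and 1995 TPM in large-cell cultures, against 1565, 1245 and 1707 TPM in 2-day cultures. Of 17 tested, 1 rose (Itga11, 2.71 ± 0.30) and 0 fell, against 17.0% and 19.6% of all genes tested. In the 6 libraries alone 5 rose, and without 6-month large-cell replicate 2 it was 2. With TPM as deposited 1 rose and 2 fell. Stromal and osteoblast markers summed to 103 to 139 TPM in large-cell libraries, against 142 to 166 TPM in 2-day libraries. Of the 7 tested, Thy1 rose (1.65 ± 0.32), Cxcl12 (-0.97 ± 0.37) and Pdgfra (-0.84 ± 0.22) fell, and Pdgfrb, Twist1, Prrx1 and Runx2 did not pass. The osteoblast genes Bglap and Dmp1 were listed at 0 in all 6 libraries. The part of stromal cells in the collagen values was not tested. In refits without a single library, the adjusted p rose above 0.05 for Cxcl12 (in 5 omissions, adjusted p up to 0.185 without large-cell replicate 3).

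Macrophage markers fell in 8 of 16 cases and rose in 2, against 19.6% and 17.0% of all genes tested, with a median of -0.64. Lyz2, lysozyme, was the most abundant transcript of the 2-day harvest, and was at 15427, 12896 and 20919 TPM in large-cell cultures, against 31545, 36183 and 34142 TPM in 2-day cultures (-0.996 ± 0.18, adjusted p = 0.000122). Marco, a scavenger receptor, was at 25.5, 2.505 and 18.4 TPM in large-cell cultures, against 52.6, 47.7 and 91.2 TPM in 2-day cultures (-2.25 ± 0.60, adjusted p = 0.00459). Adgre1, the F4/80 antigen, was at 224, 189.6 and 267 TPM in large-cell cultures, against 405, 458 and 484 TPM in 2-day cultures (-0.91 ± 0.21, adjusted p = 0.00126). The complement genes C1qa (-0.15 ± 0.26), C1qb (-0.10 ± 0.21) and C1qc (-0.28 ± 0.18) and Mertk (-0.18 ± 0.26) did not pass. Cd68, also an osteoclast antigen (1.82 ± 0.17), and Mrc1 (1.05 ± 0.23) rose. The 19 markers summed to 17719.9 to 26104 TPM in large-cell libraries, against 36673 to 42026 TPM in 2-day libraries. Pf4, a platelet chemokine also made by macrophages, was at 590.1, 462 and 608 TPM in large-cell cultures, against 2203, 1539 and 3074 TPM in 2-day cultures (-1.91 ± 0.41, adjusted p = 0.000644), while the globin and glycophorin genes of red cells were at or near 0. T and NK cell markers summed to 12.3 to 23.7 TPM in large-cell and 8.18 to 9.29 TPM in 2-day libraries, and mast cell and basophil markers to 26.0 to 35.5 TPM and 15.6 to 30.8 TPM, of which Mcpt8 was nearly all. Adipocyte markers summed to 12.7 to 16.9 TPM and 9.92 to 13.2 TPM, and endothelial markers to 12.1 to 16.6 TPM and 16.9 to 18.5 TPM, in large-cell and 2-day libraries. When the 6 libraries were left out in turn, the 20-month call was lost for Marco (adjusted p = 0.0633 without large-cell replicate 3).

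The same pair of harvests at 6 months called 6299 genes (49.9%), of which 3155 rose (25.0%) and 3144 fell (24.9%). Without large-cell replicate 2 of that age 2590 rose and 2485 fell. Of the genes that rose at 20 months, 1149 also rose at 6 months, 173 fell there and 820 were not called (1370, 197 and 1096 without that library). Of those that fell at 20 months, 1124 also fell at 6 months, 170 rose there and 1175 were not called (1184, 177 and 1811 without that library). The 2 comparisons share no library. The difference of the changes, 20 months minus 6 months, was tested as an interaction: 3220 genes passed (25.5%), 1410 with the more positive change at 20 months (11.2%) and 1810 with the more negative (14.3%). Without 6-month large-cell replicate 2 the counts were 1351 and 1867, and without replicate 1 of that group 2270 and 2907. With TPM as deposited the split turned to 1753 up and 1022 down, and the median interaction over all genes shifted by 0.28 log2 units, so differences of about that size depend on the scaling. Age and any difference in handling between the sets of cultures cannot be told apart.

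Cell division genes had the more negative change at 20 months. At 6 months, of 33 replication genes 6 rose and 6 fell (2 and 5 without large-cell replicate 2), with a median of 0.07 (-0.04 without it). There, of 32 mitosis genes 1 rose and 12 fell (1 and 5 without large-cell replicate 2), with a median of -0.35 (-0.18 without it). Set against 14.3% of all genes tested, the interaction gave 0 up and 33 down of 33 (0 and 32 without 6-month large-cell replicate 2) for replication and 0 up and 31 down of 32 (0 and 32 without 6-month large-cell replicate 2) for mitosis, and 27 and 29 were down with TPM as deposited. Birc5, the survivin of the chromosomal passenger complex, was at 10.9, 8.27 and 9.44 TPM in large-cell cultures, against 76.8, 78.4 and 71.3 TPM in 2-day cultures at 20 months, and at 42.3, 60.0 and 48.9 TPM in 6-month large-cell cultures, against 36.2, 40.1 and 46.7 TPM in 6-month 2-day cultures. Its interaction was -3.45 ± 0.39 (adjusted p = 1.56e-06), and -3.09 without 6-month large-cell replicate 2. Cdkn3, a phosphatase that acts on Cdk2, was at 1.43, 0.624 and 1.44 TPM in large-cell cultures, against 10.6, 11.6 and 10.4 TPM in 2-day cultures at 20 months, and at 7.66, 8.73 and 7.37 TPM in 6-month large-cell cultures, against 4.45, 4.12 and 4.04 TPM in 6-month 2-day cultures. Its interaction was -3.41 ± 0.45 (adjusted p = 8.98e-06), and -3.14 without that library. Large-cell libraries were far lower in both genes at 20 months, whereas at 6 months the harvests overlapped for Birc5 and Cdkn3 was higher in large-cell libraries. The summed mitosis level was 187 to 245 TPM at 20 months and 431 to 829 TPM at 6 months in large-cell libraries (812 and 829 TPM without replicate 2), and 1537 to 1706 TPM and 993 to 1161 TPM in 2-day libraries. The 20-month range was thus lower than the 6-month range in large-cell libraries and higher in 2-day libraries.

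Matrix genes differed in the other direction. At 6 months, of 18 collagen genes 2 rose and 9 fell (2 and 9 without large-cell replicate 2), with a median of -0.93 (-1.03 without it). The interaction gave 13 up and 1 down of 18 (14 and 1 without 6-month large-cell replicate 2) for collagens, 14 up and 1 down of 20 (13 and 1 without 6-month large-cell replicate 2) for matrix glycoproteins and 9 up and 0 down of 17 (12 and 0 without 6-month large-cell replicate 2) for contractile genes. Over all genes tested the shares were 11.2% up and 14.3% down. Col1a1 was at 402, 272 and 332 TPM in 6-month large-cell cultures, against 711, 672 and 585 TPM in 6-month 2-day cultures, with an interaction of 3.16 ± 0.51 (adjusted p = 8.24e-05, 3.25 without replicate 2). Itga11, a collagen-binding integrin chain, was at 42.1, 22.3 and 43.0 TPM in large-cell cultures, against 3.74, 3.92 and 6.02 TPM in 2-day cultures at 20 months, and at 5.67, 3.47 and 3.99 TPM in 6-month large-cell cultures, against 32.2, 22.3 and 26.4 TPM in 6-month 2-day cultures. Its interaction of 4.71 ± 0.43 (adjusted p = 8.21e-08) became 4.78 without replicate 2. Fn1, fibronectin, was at 4035, 3324 and 3694 TPM in large-cell cultures, against 1989, 1821 and 1997 TPM in 2-day cultures at 20 months, and at 1561, 750.5 and 1448 TPM in 6-month large-cell cultures, against 3760.4, 3705 and 3461 TPM in 6-month 2-day cultures, with an interaction of 2.21 ± 0.46 (adjusted p = 0.00116, 2.10 without replicate 2). Large-cell libraries were higher than 2-day libraries at 20 months and lower at 6 months in these genes. The collagen sum was 4438 to 5310.0 TPM at 20 months and 996 to 1706 TPM at 6 months in large-cell libraries (1528 and 1706 TPM without replicate 2), and 1511 to 1793 TPM and 3499.7 to 3988 TPM in 2-day libraries. Stromal and osteoblast markers summed to 103 to 139 TPM at 20 months and 53.5 to 96.6 TPM at 6 months in large-cell libraries (84.8 and 96.6 TPM without replicate 2), and to 142 to 166 TPM and 198 to 208 TPM in 2-day libraries. With 1 of the 6 libraries left out, the test was no longer passed by Fn1 (in 2 omissions, adjusted p up to 0.0564 without 2-day replicate 3).

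The stress and presentation lists differed as well. All lists here stand beside interaction shares of 11.2% up and 14.3% down over all genes tested. For endoplasmic reticulum stress and chaperones the interaction gave 12 up and 1 down of 25 (12 and 3 without 6-month large-cell replicate 2). Pdia4, a lumenal disulfide isomerase, was at 729, 601 and 730.1 TPM in large-cell cultures, against 167, 186 and 168 TPM in 2-day cultures at 20 months, and at 138, 54.8 and 144 TPM in 6-month large-cell cultures, against 209, 214 and 198 TPM in 6-month 2-day cultures, with an interaction of 2.64 ± 0.23 (adjusted p = 5.02e-08, 2.42 without replicate 2). Class II genes had the more negative change at 20 months, 0 up and 8 down of 8 (0 and 7 without 6-month large-cell replicate 2). Cd74 was at 357, 523 and 325 TPM in 6-month large-cell cultures, against 2.19, 2.34 and 2.43 TPM in 6-month 2-day cultures, with an interaction of -3.22 ± 0.55 (adjusted p = 0.000172, -2.78 without replicate 2). Inflammatory genes gave 2 up and 8 down of 27 (1 and 6 without 6-month large-cell replicate 2) and immunoglobulins 0 up and 5 down of 7 (0 and 5 without 6-month large-cell replicate 2). The immunoglobulin count was partly set by the level filter, which segments could pass through the 20-month 2-day libraries alone. The 20-month 2-day libraries were those with high immunoglobulin sums: these were 2.93 to 14.7 TPM and 131 to 167 TPM at 20 months in large-cell and 2-day libraries, and 9.37 to 12.6 TPM and 2.55 to 10.0 TPM at 6 months.

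Acp5, Ctsk and Atp6v0d2 rose at both ages, by less at 20 months. For the pump the median interaction was -0.19, and 0.13 with TPM as deposited, so its sign depended on the scaling. Resorption enzymes gave 1 up and 6 down of 9 (1 and 6 without 6-month large-cell replicate 2), the pump 1 up and 3 down of 24 (1 and 4 without 6-month large-cell replicate 2) and receptors 2 up and 5 down of 12 (0 and 6 without 6-month large-cell replicate 2). Of all genes tested, 11.2% were up and 14.3% down, and over all libraries the pump did not exceed either share. Atp6v0d2 was at 388, 152 and 253 TPM in 6-month large-cell cultures, against 1.48, 1.28 and 3.13 TPM in 6-month 2-day cultures, with an interaction of -2.38 ± 0.36 (adjusted p = 4.94e-05, -2.50 without replicate 2). Acp5 was at 5679.9, 4668 and 4553 TPM in 6-month large-cell cultures, against 23.5, 16.9 and 23.1 TPM in 6-month 2-day cultures, and its interaction was -2.36 ± 0.44 (adjusted p = 0.000455, -2.17 without replicate 2). Ctsk was at 6064, 2469 and 3822 TPM in 6-month large-cell cultures, against 36.8, 34.6 and 45.1 TPM in 6-month 2-day cultures, with -1.63 ± 0.39 (adjusted p = 0.00385, -1.71 without replicate 2). The 6-month 2-day levels of these genes lay below those at 20 months. Nfatc1 was at 69.5, 21.7 and 54.5 TPM in 6-month large-cell cultures, against 18.8, 21.6 and 23.9 TPM in 6-month 2-day cultures, with an interaction of 0.15 ± 0.27 (adjusted p = 0.708). Without replicate 2 it was -0.11 (adjusted p = 0.78). Nuclear oxidative phosphorylation genes rose in 66 of 68 cases at 6 months, against 18 at 20 months. Without replicate 2 the counts were 51 and 30. The interaction called 8 of them with the more negative change (2 without replicate 2), against 14.3% of all genes tested. Over all libraries 0 of the 68 interactions were positive, and their median was -0.77, against -0.04 over all genes tested. Without replicate 2 these medians were -0.31 and -0.06, and with TPM as deposited -0.45 and 0.24.

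**Figure D5:**
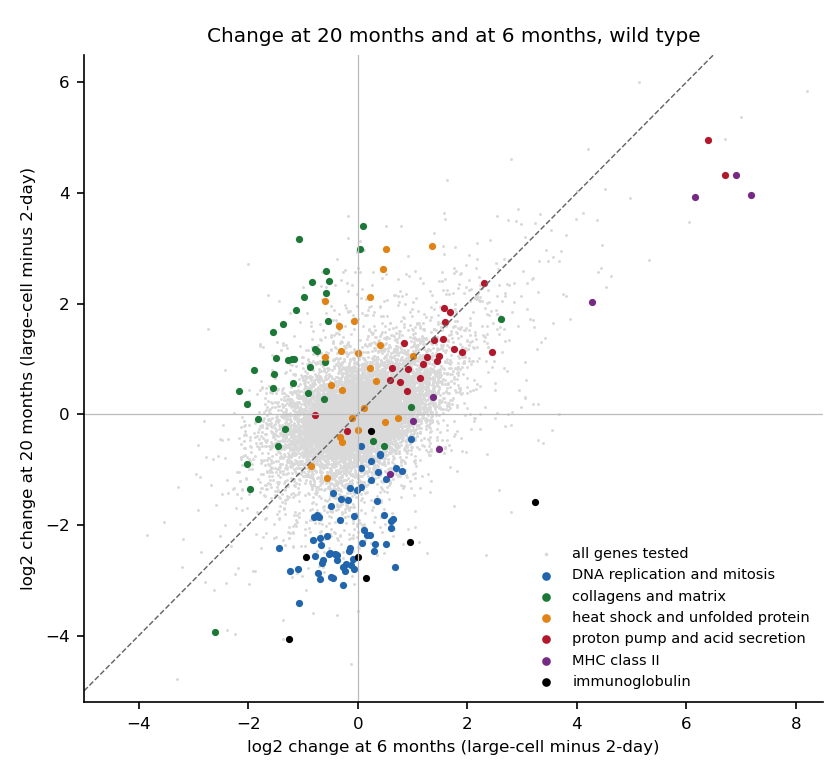
Log2 change, large-cell minus 2-day, at 20 months (y axis) against that at 6 months (x axis) for all genes tested (grey) and for 6 gene lists (coloured), with the line of equal change dashed. Replication and mitosis genes lie mostly below the line and collagen and matrix genes mostly above it.

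Among the 3 large-cell libraries, replicate 3 carried the highest resorption enzyme sum, 34812 TPM, against 26815 and 26636 TPM in replicates 1 and 4. It also had the lowest inflammatory sum, 802 TPM, against 1321 and 1077 TPM. Replicate 1 had the highest class II sum, 491 TPM, against 192 and 220.1 TPM in replicates 3 and 4. Over genes tested, the median SD of log2 values among replicates was 0.111 in large-cell and 0.110 in 2-day libraries.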

How the data were processed

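The authors deposited 1 table per age and genotype. Its values were taken as TPM because every deposited column adds up to 1000000 and holds values that are not whole, and the file headers name no unit. HTSeq and the build mm10 stand in the submitters' processing notes without versions. No aligner is named there. Symbols and positions came from GENCODE M21 by identifier (45143 of 45706 matched) and promoters from RefSeq. All 30 libraries were scaled by trimmed means of log ratios, unweighted (trims of 30% and 5%), genes averaging at least 1 TPM were kept (12614), and limma 3.58.1 in R 4.3.3 was fitted to log2(scaled TPM + 1) with 10 group means and trended, robust moderation. Such log2 changes understate those of low genes. Benjamini-Hochberg adjustment covered all genes tested, with a threshold of 0.05. The fit was tested on simulated data. The printed TPM values are as deposited.

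The members and the 49 gene lists were chosen with earlier results of these data known. Named genes were the 15 largest rises and falls (called, at least 5 TPM on average, harvests not overlapping), members of osteoclast lists, up to 6 members of each other list with the smallest p, and 8 interaction genes in each direction. Further members were named after their values were seen, and a few are not reported here. Pseudogenes, predicted genes and sex-linked genes were left out of the naming. Alternatives covered scaling, pseudocount, filter, libraries fitted, variance, replicate number and single libraries, and leaving out 6-month large-cell replicate 2 was added after seeing the data. No pair of libraries held identical values.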

Additional observations from a re-analysis of the deposited data

Results flagged for a closer look

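The change between harvests differed between 20 and 6 months, by the interaction test over all genes, for 3220 genes, 1410 of them with the more positive change at 20 months and 1810 with the more negative. The 8 genes with the largest differences in each direction, among called genes that averaged at least 5 TPM over the 12 libraries and did not overlap between the 20-month harvests, are given here as log2 change at 20 months minus that at 6 months, each with its value without 6-month large-cell replicate 2. The more positive were Itga11 (4.71, 4.78 without), Thbs2 (4.24, 3.94 without), Adamts4 (3.805, 3.67 without), Aldh1l2 (3.77, 3.49 without), Pappa (3.49, 3.07 without), Medag (3.37, 3.29 without), Gzmd (3.30, 3.89 without) and Ogn (3.29, 3.21 without). Adamts4, an aggrecan-cleaving protease, was at 72.9, 56.0 and 44.5 TPM in large-cell cultures, against 13.3, 9.66 and 14.8 TPM in 2-day cultures at 20 months, and at 12.9, 4.47 and 7.51 TPM in 6-month large-cell cultures, against 39.1, 37.9 and 26.9 TPM in 6-month 2-day cultures. Aldh1l2, a mitochondrial folate enzyme, was at 54.3, 49.4 and 53.4 TPM in large-cell cultures, against 3.27, 3.70 and 3.37 TPM in 2-day cultures at 20 months, and at 6.07, 1.64 and 5.44 TPM in 6-month large-cell cultures, against 5.82, 6.55 and 5.58 TPM in 6-month 2-day cultures. Adamts4 was thus higher in large-cell cultures at 20 months and lower in them at 6 months.

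The more negative were Ighm (-4.81, -4.83 without), Usp50 (-4.56, -3.57 without), S100a9 (-4.39, -4.39 without), Cep85 (-3.94, -3.21 without), Rpph1 (-3.78, -3.09 without), Birc5 (-3.45, -3.09 without), Cdkn3 (-3.41, -3.14 without) and Cd74 (-3.22, -2.78 without). Ighm was at 3.25, 0.879 and 2.59 TPM in large-cell cultures, against 12.7, 8.09 and 7.12 TPM in 2-day cultures at 20 months, and at 9.56, 5.87 and 10.5 TPM in 6-month large-cell cultures, against 0, 0.0750 and 0.0779 TPM in 6-month 2-day cultures. Cep85, a centrosome protein gene, was at 134, 104 and 136 TPM in large-cell cultures, against 341, 348 and 329.8 TPM in 2-day cultures at 20 months, and at 384, 1003 and 332 TPM in 6-month large-cell cultures, against 102, 96.7 and 141 TPM in 6-month 2-day cultures, with large-cell replicate 2 far above the others. Usp50 ranged widely within groups, at 0.0570, 0.188 and 0.269 TPM in large-cell cultures, against 7.92, 6.82 and 0.329 TPM in 2-day cultures at 20 months, and at 14.6, 59.4 and 8.87 TPM in 6-month large-cell cultures, against 11.8, 0.0519 and 2.49 TPM in 6-month 2-day cultures. S100a9 was listed at 0 in large-cell cultures of both ages, so its value rests on the 20-month 2-day cultures, which held 18.3, 60.2 and 19.2 TPM, against 0, 0.396 and 0 TPM in 6-month 2-day cultures.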

How the results depend on the processing

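The 4611 calls at 20 months became 4229 with TPM as deposited, 4595 with median-ratio scaling, 4541 with a pseudocount of 0.1, 5034 without a filter, 4777 with the filter on the libraries compared, 3984 over the 7 groups without a title marker, 5835 without 6-month large-cell replicate 2 (2663 up, 3172 down) and 3658 to 4085 with 1 of the 6 libraries left out. Fits to the 6 libraries alone gave 6895 calls, 6892 when each group also had its own variance, and their falls numbered 3751 and 3749, against 2469. None of the 4611 genes took the opposite sign in any of these settings or with the replicate block below. Replicate numbers 3 and 4 occur in both harvests. The deviations of same-numbered libraries had correlations of 0.0988 and 0.0356 over genes, and those of the other pairs lay between -0.117 and 0.0930. With 3 libraries per group, these values cannot tell whether same-numbered libraries shared a mouse or culture. With a replicate block 3464 genes were called, 1583 up and 1881 down, and in the interaction 2381. The interaction count of 3220 became 2048 over the libraries compared (1049 down), 1434 with a variance for each group (705 up, 729 down) and 1022 down with TPM as deposited. It ranged between 2488 and 5177 with a library left out (1075 to 2270 up, 1405 to 2907 down), the highest without 6-month large-cell replicate 1. Usp50 did not pass with a variance for each group (-4.56, adjusted p = 0.258) or a replicate block (-4.61, adjusted p = 0.0635). Of 1568 counts over the lists, 1409 stayed within 1.5 times.

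Among the named genes, Bhlhe40, Canx, Ccnd2, Ccng2, Cd81, Cdkn1b, Csf1r, Fn1, Irf9, Mef2d, Plcg2, Sesn2, Sh3pxd2a, Sirpa, Traf6 and Trp53inp1 no longer passed with TPM as deposited, and Bhlhe40, Canx, Ccnd2, Cd81, Cdkn1b, Cdkn1c, Cdt1, Col18a1, Csf1, Ctc1, Cxcl12, Fcer1g, Fn1, Fth1, Hsp90ab1, Mef2d, Relb, Rtel1, Sesn2, Sh3pxd2a and Traf6 did not with the replicate block. Changes near 0 that did not pass took the opposite sign with TPM as deposited for B2m (-0.0022), Bcl6 (-0.039), Esrra (-0.027), Mt1 (-0.011), Myo10 (-0.024), Pik3cb (-0.049), Prkdc (-0.0079) and Twist1 (-0.036), with median-ratio scaling for Atp6v0a2 (0.018) and Ikbkb (0.014), and with the replicate block for Atm (-0.052), B2m (-0.00046) and Pik3cb (-0.016). With a library left out, changes that turned lay between -0.16 and 0.0099 for Adam12, -0.0031 and 0.17 for Atm, -0.11 and 0.14 for Atp6v0a2, -0.038 and 0.14 for Bcl6, -0.13 and 0.039 for Btk, -0.19 and 0.0029 for C1qb, -0.076 and 0.020 for Cd44, -0.0018 and 0.13 for Esrra, -0.057 and 0.0098 for Ikbkb, -0.070 and 0.16 for Mt1, -0.020 and 0.27 for Mt2, -0.015 and 0.11 for Myo10, -0.023 and 0.095 for Pik3cb and -0.025 and 0.11 for Twist1. Causes were not tested. TPM carry no depth, so precision rests on 3 libraries a group, and an exact test of 3 against 3 cannot go below 0.1.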
